A study of Mus musculus with 18 samples.

Results

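The 48 genes described here encode the core machinery of autophagy and the main proteins of the lysosome. They form a fixed list of symbols that was chosen with earlier results of these data known. All 48 had a row in both deposited tables, out of 17773 genes that the tables share (18329 in the acute one, 18953 in the survival one). RNA was sequenced from 18 spleens filled with T-cell acute lymphoblastic leukemia (T-ALL) in C57BL/6 mice, and every leukemia carried a conditional allele of Acly, which encodes ATP-citrate lyase, a source of acetyl-CoA outside mitochondria. KO acute (n = 4), KO survival second wave (n = 3) and KO survival first wave (n = 3) were the groups whose genotype is given as Acly deleted. WT acute (n = 4) and WT survival (n = 4) were the groups given as control. The leukemia cells were given intravenously to sublethally irradiated recipients, so the spleens can hold host cells as well as leukemia. Per the labels' protocols, the agents were tamoxifen, 3 mg per mouse in corn oil by intraperitoneal injection, and corn oil alone. In the acute arm the injection came at overt leukemia and the spleen was taken after 48 h, whereas in the survival arm it came 48 h after transplantation and the spleen was taken at the humane endpoint.

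Which agent each library received is not stated per sample. As the protocols are read here, the Acly deleted groups had tamoxifen and the control groups corn oil alone. On that reading, tamoxifen and Acly loss cannot be told apart. The labels do not state which Cre was used, what separates the waves, or whether libraries within a group are separate mice or stem from a single primary leukemia, so p-values measure only the spread between these libraries, which may be technical. The survival libraries were also sampled at another disease stage than the acute ones and were normalized in another table, so each comparison stays within its own table. Values are normalized counts, which are estimated read counts that the authors divided by a size factor per library.

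Autophagy begins when the ULK kinase complex and the class III phosphatidylinositol 3-kinase complex start a membrane cup, which 2 ubiquitin-like conjugation systems extend by attaching Atg8-family proteins (the LC3 and GABARAP proteins) to its lipid. Cargo receptors tie proteins and organelles to those Atg8 proteins, and the closed vesicle fuses with a lysosome. There, hydrolases work in the acid kept by the V-ATPase, a proton pump made of a membrane sector (V0) and a cytosolic sector (V1). The MiT/TFE transcription factors, among them TFEB, switch on many of these genes. In T cells autophagy supplies nutrients and removes mitochondria.

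Acly itself averaged 733 ± 85.1 in KO acute libraries and 1256 ± 122 in WT acute libraries (SD, n = 4 each; log2 fold change -0.78, SE 0.13; limma adjusted p = 0.00266). It averaged 576 ± 75.3 in the second wave and 727 ± 71.8 in the first wave (SD, n = 3 each), against 1697 ± 154 in WT survival libraries (SD, n = 4). No KO library reached the lowest WT library of its table, and each of these comparisons had an exact two-sided permutation p of 0.0286, the smallest that groups of these sizes allow. The limma adjusted p was 0.00155 in the second wave and 0.0562 in the first wave. The deleted exons are unknown here, so this is a check of the labels and not a measure of the share of deleted cells.

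Library depth, estimated from the smallest steps between low values, was 6.09 to 12.7 M reads, and the normalized totals were 7.07 to 10.4 M. The sum over 16 thymocyte and T-ALL markers was 58613 to 82974 in KO acute libraries and 86360 to 103311 in WT acute libraries, with 1 marker called higher and 5 called lower. In a bulk spleen, fewer cells of a type and less RNA per cell cannot be told apart. The sum over neutrophil markers was 1650 to 5031 in KO acute libraries and 921 to 1853 in WT acute libraries, and 14 of 14 tested markers had positive log2 fold changes, 2 of them called. Of 14 erythroid markers, 14 had negative log2 fold changes and 1 was called lower. All 9 tested B-cell markers and 6 of 8 tested dendritic-cell markers had positive log2 fold changes, with 0 called in either list at a limma adjusted p of 0.05 and 2 and 3 at an unadjusted p under 0.05. The macrophage sums overlapped (578 to 897 in KO acute libraries and 609 to 885 in WT acute libraries). Of 10 tested macrophage markers, 5 had positive and 5 negative log2 fold changes, with 0 called. Their levels differed: C1qa was at 0 in 2 of 8 libraries and never above 8.32, whereas Csf1r reached 195 and Vcam1 356. C1qb, C1qc and Timd4 stayed at 19.8 or less. The mitochondrial share was 4.80%, 5.27%, 2.35% and 2.70% in KO acute replicates 1 to 4, against 3.50% to 3.69% in WT acute libraries. The part of these library differences in the results that follow was not tested.

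The acute comparison asks which of these genes differed 48 h after treatment of established leukemia. Genes had to average at least 10 normalized counts to be tested, which kept 45 members and left out Map1lc3a, Gabarapl1 and Mitf. Of the 45, 10 passed a limma adjusted p of 0.05 (22.2%), 2 of them higher and 8 lower in KO acute libraries. Over all 14184 genes tested, 12.6% passed, 4.58% higher and 8.07% lower, against 4.44% and 17.8% of the members. Since the members were chosen with earlier results of these data known, these shares describe the list and do not test it. The split over all genes was 650 higher and 1144 lower, and it became 606 and 651 with a trend on transcript length, GC content and abundance removed and 746 and 832 under quantile normalization. At an unadjusted p under 0.05 there were 17 of the 45 members (37.8%), against 28.1% of all genes, and the unadjusted counts for smaller groups of acute genes given later stand against that 28.1%. The median log2 fold change was -0.09 over the tested members, with 20 positive and 25 negative, and 0.03 over all genes. The groups did not overlap for 13 of the 45 members (28.9%), against 19% of all genes. The genes that fell came from the proton pump, the Atg8 family, one conjugation enzyme and one lysosomal membrane protein, and those that rose were a lysosome adaptor and another conjugation enzyme.

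**Figure D1:**
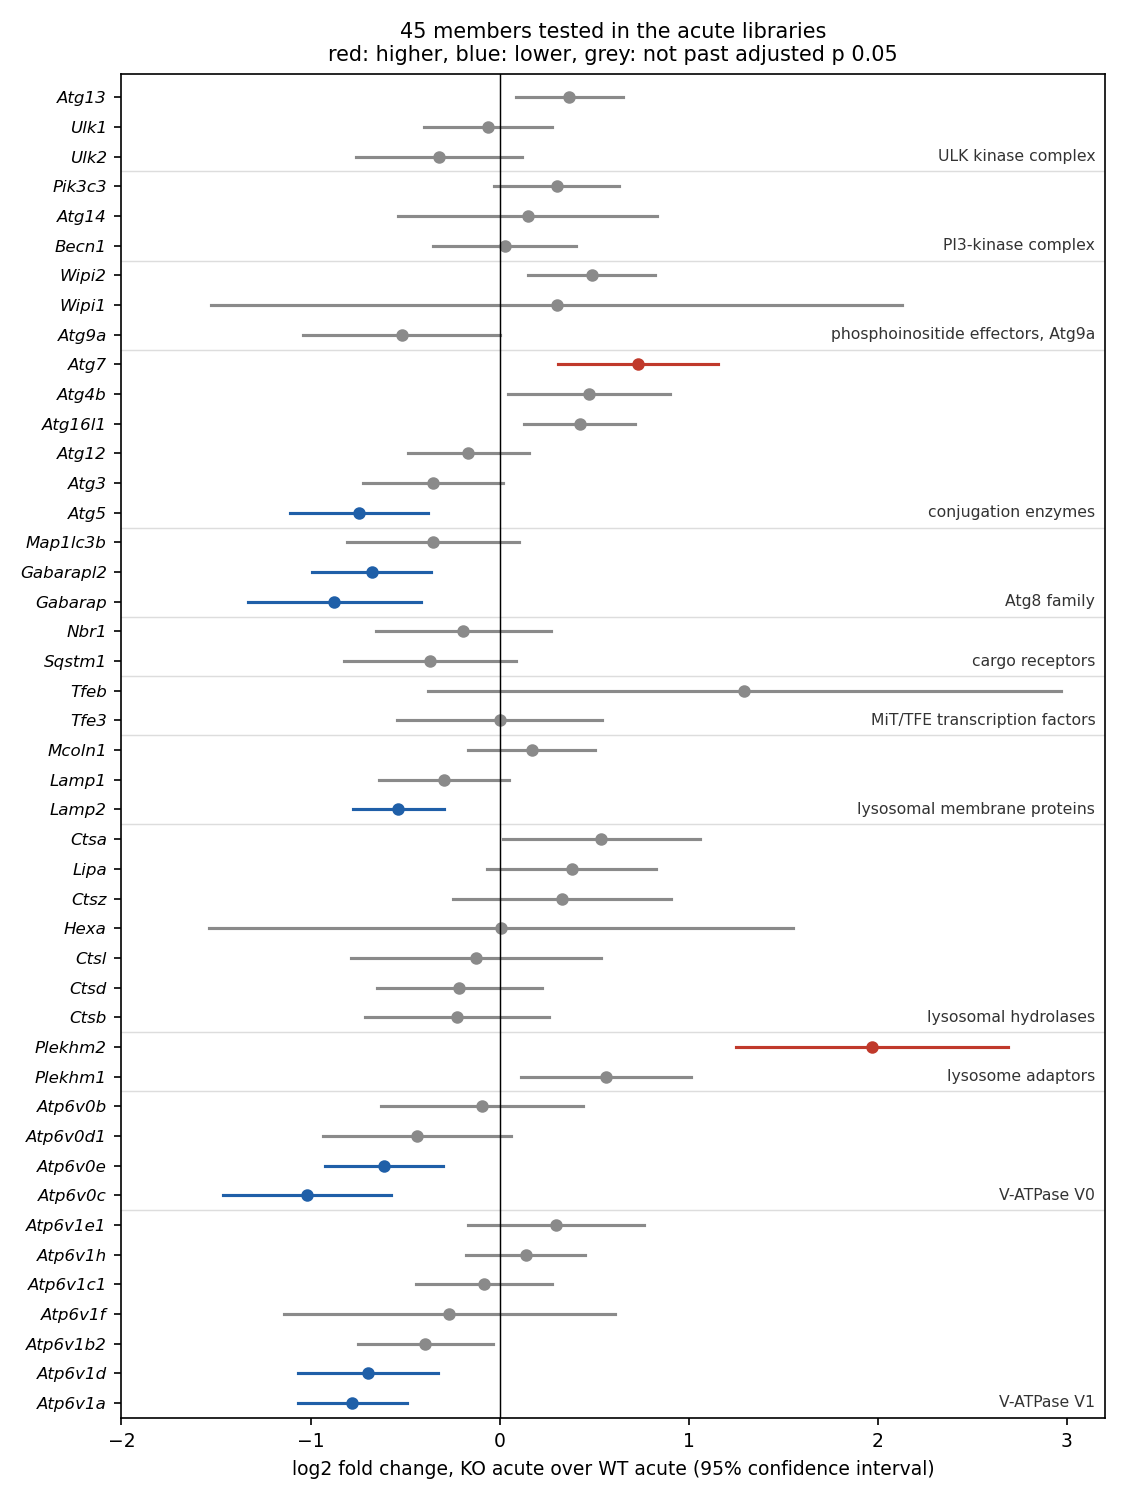
Log2 fold change of the 45 tested members, KO acute over WT acute (x axis; points are limma estimates and lines their 95% confidence intervals), ordered by role. The 8 blue genes were lower and the 2 red genes higher at an adjusted p under 0.05. Of the 11 V-ATPase subunits, 4 were among the lower ones, against 8.07% of all genes tested.

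Among the genes that start the vesicle, 0 of 9 passed the limma threshold, and 2 of 9 did at an unadjusted p under 0.05 (Atg13 and Wipi2), no larger a share than the 28.1% of all genes. Atg13, the adaptor of the ULK kinases, was at 622, 589, 587 and 531 in KO acute libraries and at 469, 411, 458 and 465 in WT acute libraries. The groups did not overlap, but the log2 fold change of 0.37 (SE 0.13) had an adjusted p of 0.0841 with limma. It passed under quantile normalization (0.44, adjusted p = 0.0468). Wipi2, which reads phosphatidylinositol 3-phosphate on the growing membrane, averaged 698 ± 83.0 in KO acute libraries and 500.4 ± 88.6 in WT acute libraries (SD, n = 4 each), with a log2 fold change of 0.49 and a limma adjusted p of 0.0566. It passed under quantile normalization (0.57, adjusted p = 0.0319) and with a mean of at least 50 (adjusted p = 0.0435).

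The catalytic subunit of the lipid kinase, Pik3c3, was at 547, 494, 408 and 455 in KO acute libraries, against 368, 414, 428 and 333 in WT acute libraries. These ranges overlapped and the log2 fold change of 0.30 had a limma adjusted p of 0.219. Atg9a, the scramblase that brings membrane to the vesicle, was at 120, 113, 196 and 104 in KO acute libraries and at 159, 171, 178 and 244 in WT acute libraries. Its KO replicate 3 lay within the WT range, and the log2 fold change was -0.52 (limma adjusted p = 0.182). Ulk1, Ulk2, Becn1, Atg14 and Wipi1 lay between -0.32 and 0.30 on the log2 scale.

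The conjugation enzymes split. Atg5, which is joined to Atg12 and acts with Atg16l1 as the ligase for Atg8 proteins, fell: it was at 248, 203, 218 and 199 in KO acute libraries and at 328, 374, 438 and 321 in WT acute libraries. All KO values lay below all WT values, at 59.4% of the WT mean (log2 fold change -0.74, SE 0.17; limma adjusted p = 0.0124). Atg7, the activating enzyme shared by both conjugation systems, rose: it was at 267, 194, 212 and 195 in KO acute libraries and at 143, 130, 113 and 133 in WT acute libraries. The groups did not overlap and the KO mean was 167% of the WT mean (log2 fold change 0.73, SE 0.20; limma adjusted p = 0.0267).

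The Atg7 call did not survive the removal of KO acute replicate 1 (limma adjusted p = 0.0774) or 3 (0.0519), or of WT acute replicate 2 (0.0582), 3 (0.0719) or 4 (0.0626), while its log2 fold change stayed between 0.63 and 0.78. Without KO acute replicates 1 and 2 together it was 0.65 (adjusted p = 0.127), and with the trend on length, GC content and abundance removed it was 0.64 (adjusted p = 0.0618). Atg5 passed in all 19 acute alternatives. Atg5 (chr10:44268358-44364291, plus strand, GRCm38) spans the microRNA gene Mir1929, and Atg7 (chr6:114643097-114860614, plus strand) spans 3 predicted genes on its own strand.

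Atg16l1, the membrane-targeting subunit of the ligase, was at 1139, 1156, 872 and 1250 in KO acute libraries, against 853, 871, 725 and 825 in WT acute libraries. Its lowest KO value was just above the highest WT value, and its limma adjusted p was 0.0579 (log2 fold change 0.42). It passed with the trend removed (0.48, adjusted p = 0.0432), with a mean of at least 50 (adjusted p = 0.0443) and under quantile normalization (0.55, adjusted p = 0.0234). Atg4b, the protease that primes Atg8 proteins, had a log2 fold change of 0.47 (limma adjusted p = 0.138), Atg3, the conjugating enzyme for Atg8 lipidation, had one of -0.35, and Atg12 had one of -0.17.

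Within the Atg8 family, 2 of the 3 tested members fell, against 8.07% of all genes tested. These calls became 0 with the trend on length, GC content and abundance removed and 0 without KO acute replicates 1 and 2 together. Gabarap, which acts late in vesicle closure and fusion, was at 552, 375, 834 and 793 in KO acute libraries and at 1026, 1273, 1067 and 1117 in WT acute libraries. KO replicates 1 and 2 were the lowest, and all KO values lay below all WT values (log2 fold change -0.88, SE 0.21; limma adjusted p = 0.0167). Without KO acute replicates 1 and 2 the log2 fold change was -0.46 (adjusted p = 0.0714), with the trend on length, GC content and abundance removed it was -0.59 (0.0723), and without WT acute replicate 2 the call was lost narrowly (-0.81, adjusted p = 0.0529).

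Gabarapl2, also called GATE-16, was at 290, 287, 282 and 338 in KO acute libraries, against 427, 505, 477 and 506 in WT acute libraries. The KO libraries were tightly grouped and lay at 62.5% of the WT mean (log2 fold change -0.68, SE 0.15; limma adjusted p = 0.00948). The call was lost without KO acute replicates 1 and 2 together (-0.63, adjusted p = 0.0539) and with the trend removed (-0.43, adjusted p = 0.0710). Map1lc3b, the LC3 protein used as the usual marker of autophagosomes, averaged 388 ± 111 in KO acute libraries and 481 ± 60.9 in WT acute libraries (SD, n = 4 each). Its log2 fold change of -0.35 did not pass. Map1lc3a stayed between 0 and 10.6 and Gabarapl1 between 0.81 and 9.43 in all 8 acute libraries, too low to test. Scaled to transcript length in WT acute libraries, Gabarap had the highest level of all members at 1067 normalized counts per kb, Map1lc3b had 291 and Gabarapl2 had 285.

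Neither cargo receptor passed the limma threshold, and neither did at an unadjusted p under 0.05. Sqstm1 (p62), which collects ubiquitinated cargo and is itself degraded by autophagy, was at 149, 224, 149 and 137 in KO acute libraries and at 236, 173, 202 and 230 in WT acute libraries. KO replicate 2 lay inside the WT range and the other 3 lay below it (log2 fold change -0.37, limma adjusted p = 0.279). Nbr1, its partner receptor, had a log2 fold change of -0.19.

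Lysosomal membrane and lumen genes gave 1 call among 10, against 12.6% of all genes tested. Lamp2, a heavily glycosylated membrane protein needed for fusion and for chaperone-mediated autophagy, was at 1699, 1326, 1617 and 1693 in KO acute libraries and at 2124, 2298, 2392 and 2342 in WT acute libraries. The groups were well apart, at 69.2% of the WT mean (log2 fold change -0.54, SE 0.11; limma adjusted p = 0.00806). With the trend on length, GC content and abundance removed its log2 fold change was -0.21 (adjusted p = 0.190). Lamp1, its close relative, had a log2 fold change of -0.29 and Mcoln1, the lysosomal calcium channel, one of 0.17.

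The 7 lysosomal hydrolases gave 0 calls with limma and 1 gene at an unadjusted p under 0.05, with a median log2 fold change of 0.01. That gene was Ctsa, the protective protein of a lysosomal glycosidase complex, at 282, 182, 145 and 147 in KO acute libraries and at 123, 146, 108 and 125 in WT acute libraries. KO replicate 1 was far above the others, KO replicates 3 and 4 were close to the highest WT library, and the log2 fold change of 0.54 had a limma adjusted p of 0.163. The cathepsin genes Ctsb and Ctsd had log2 fold changes of -0.23 and -0.21, Ctsl had -0.13, and Ctsz and the acid lipase Lipa had 0.33 and 0.38. Hexa, at 3.47 to 18.9 over the 8 libraries, was near the filter. In a further 34 tested hydrolase genes, 0 passed with limma and 8 had an unadjusted p under 0.05, a smaller share than the 28.1% of all genes.

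The transcription factors were low or flat. Tfeb was at 14.5, 25.9, 9.07 and 19.9 in KO acute libraries and at 9.27, 2.88, 1.43 and 24.1 in WT acute libraries, so the groups overlapped (log2 fold change 1.29, SE 0.78; limma adjusted p = 0.302). Tfe3, the better expressed relative, averaged 103 ± 24.3 in KO acute libraries and 102 ± 16.0 in WT acute libraries (SD, n = 4 each). Mitf was below the filter, with a single KO library at 32.7 and the others of the table at 8.72 or less.

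The V-ATPase gave the most calls: 4 of its 11 listed subunits fell and 0 rose, against 8.07% lower and 4.58% higher over all genes tested. Of the 11, 9 had negative log2 fold changes, with a median of -0.39. The 4 calls became 2 with the trend on length, GC content and abundance removed. They became 2 with a variance prior that ignores abundance, and 1 without KO acute replicates 1 and 2 together. The median of these 11 stayed between -0.46 and -0.29 over 19 alternatives, while that of all genes stayed between -0.03 and 0.05. The 12 further tested V-ATPase genes, described below, had a median of 0.15. Atp6v0c, the proteolipid of the rotating ring, was at 248, 188, 302 and 251 in KO acute libraries and at 428, 371, 586 and 641 in WT acute libraries. The highest KO value was under the lowest WT value, at 48.8% of the WT mean (log2 fold change -1.02, SE 0.21; limma adjusted p = 0.00720). Atp6v0c has annotated pseudogene copies, so its value is uncertain where reads were shared between them. Its call narrowly failed without KO acute replicates 1 and 2 together (-0.84, adjusted p = 0.0502).

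Atp6v1a, the catalytic subunit that hydrolyses ATP, was at 769, 744, 891 and 998 in KO acute libraries, against 1264, 1601, 1380 and 1584 in WT acute libraries. KO values reached 58.4% of the WT mean without overlap (log2 fold change -0.78, SE 0.13; limma adjusted p = 0.00310), and this gene passed in all 19 acute alternatives. Atp6v1d, part of the central rotor, was at 285, 401, 408 and 328 in KO acute libraries and at 653, 464, 528 and 660 in WT acute libraries. Its groups did not overlap (log2 fold change -0.69, SE 0.17; limma adjusted p = 0.0186). The call did not survive the removal of KO acute replicate 1 (adjusted p = 0.0522) or of WT acute replicate 1 (0.0508) or 4 (0.0696), and it was also lost without KO acute replicates 1 and 2 together (0.0706) and with the trend removed (0.0601).

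Atp6v0e, a small membrane subunit, was at 455, 339, 452 and 466 in KO acute libraries and at 608, 677, 692 and 624 in WT acute libraries. KO replicate 2 was the lowest and the groups did not overlap (log2 fold change -0.61, SE 0.15; limma adjusted p = 0.0152). With the trend removed the log2 fold change was -0.29 (adjusted p = 0.191), and without KO acute replicates 1 and 2 it was -0.50 (adjusted p = 0.0707). The other 7 subunits did not pass. Among them, Atp6v1b2 of the catalytic head had a log2 fold change of -0.39 (limma adjusted p = 0.137), the membrane subunit Atp6v0d1 had -0.44, Atp6v1e1 and Atp6v1h had 0.30 and 0.14, and Atp6v0b, Atp6v1c1 and Atp6v1f had -0.09, -0.08 and -0.27. Over the 12 further tested V-ATPase genes, 1 rose and 1 fell, and 6 had positive and 6 negative log2 fold changes. Tcirg1, an isoform of the large membrane subunit used in osteoclasts and T cells, was at 635, 901, 760 and 779 in KO acute libraries, against 494, 467, 413 and 447 in WT acute libraries. All its KO values lay above all WT values (log2 fold change 0.75, SE 0.14; limma adjusted p = 0.00515), so subunits of the pump differed in direction. Atp6v1g1, of the stator stalk, fell (log2 fold change -0.43, limma adjusted p = 0.0302), but that call was lost in 5 of the 8 settings that left out 1 acute library and its value was -0.06 (adjusted p = 0.779) with the trend removed.

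**Figure D2:**
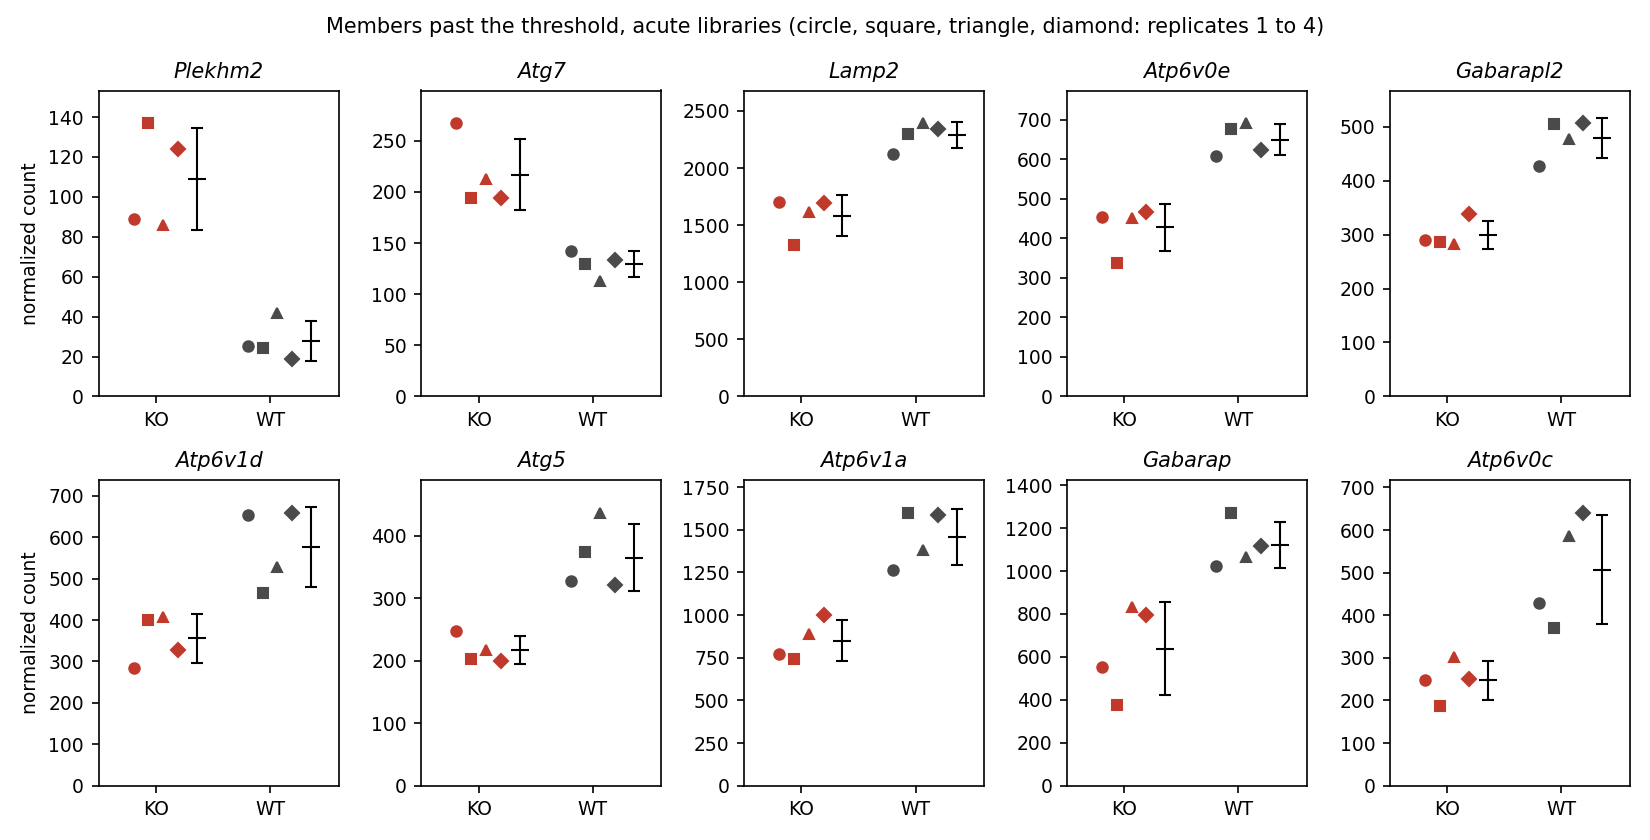
Normalized count (y axis, from 0) of the 10 members past the threshold in each acute library, KO in red and WT in grey, with the mean and SD of each group as a bar (n = 4 each). In all 10 panels the KO and WT libraries do not overlap, and Gabarap has its lowest values in KO replicates 1 and 2.

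The promoters of these genes were examined for the E-box CACGTG and for TCACGTGA, the palindrome at the core of the element through which TFEB and its relatives act on lysosomal genes. RefSeq promoter windows on GRCm38.p6 (250 bases before to 50 bases after a start) were matched for 39 of 48 members. CACGTG, which reads the same on both strands and lies within TCACGTGA, was found in 13 of the 39 (33.33%), against 8.093% of 27025 genes. TCACGTGA, also a palindrome, was found in 7 of the 39 (17.95%), against 1.125% of genes. The 10 called members all had a window: CACGTG was in 4 of them (Atg5 and Atg7, which differed in direction, Atp6v0e and Atp6v1a), and TCACGTGA in Atp6v0e and Atp6v1a. The other genes with TCACGTGA were Atg3, Atp6v0d1, Ctsa, Ctsd and Mcoln1, and none of those 5 passed the limma threshold in the acute comparison (1 of them, Ctsa, had an unadjusted p under 0.05). A match says only that these letters lie in the window. Windows of 28 bases around the match are shown for 6 of the 7 members that held TCACGTGA, genes of the V-ATPase, of lysosomal proteases and of a channel. Of the 4 called V-ATPase genes, Atp6v0c and Atp6v1d did not hold it. The windows run 5′ to 3′ on the gene's strand, with the motif in capitals.
Atp6v1a (chr16:44139374-44139401, minus strand): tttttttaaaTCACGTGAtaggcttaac
Atp6v0e (chr17:26676388-26676415, plus strand): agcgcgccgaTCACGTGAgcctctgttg
Atp6v0d1 (chr8:105566051-105566078, minus strand): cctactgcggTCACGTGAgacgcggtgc
Mcoln1 (chr8:3500463-3500490, plus strand): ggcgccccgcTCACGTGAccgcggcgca
Ctsa (chr2:164833750-164833777, plus strand): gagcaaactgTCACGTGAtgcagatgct
Ctsd (chr7:142387909-142387936, minus strand): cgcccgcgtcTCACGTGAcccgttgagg

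Outside the motif these windows differ, from the A and T rich flank of Atp6v1a to the G and C rich one of Mcoln1. The motif began 132 bases before the RefSeq start in Atp6v1a, 99 bases before it in Ctsd, 46 bases before it in Mcoln1 and within 13 bases of it in Ctsa, Atp6v0d1 and Atp6v0e. The annotations differ here: the GENCODE gene spans of Atp6v1a, Ctsd, Mcoln1, Ctsa and Atp6v0e begin further upstream and take in these windows. Ctsa held a second copy 17 bases further on. Atp6v0c, the pump gene with the largest fall, has 3 windows in RefSeq and CACGTG in 0 of them. The 250 bases before one of its starts are given for comparison, on GRCm38.p6.
Atp6v0c (chr17:24169679-24169928, minus strand): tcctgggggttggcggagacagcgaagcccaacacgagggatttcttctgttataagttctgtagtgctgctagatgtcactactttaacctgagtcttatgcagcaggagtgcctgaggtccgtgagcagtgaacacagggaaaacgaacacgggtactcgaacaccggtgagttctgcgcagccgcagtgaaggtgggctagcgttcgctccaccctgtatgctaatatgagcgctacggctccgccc

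The largest difference of any member was a rise. Plekhm2 (SKIP) binds the GTPase ARL8 on lysosomes and recruits kinesin, which carries lysosomes toward the cell edge. It was at 89.0, 137, 85.7 and 124 in KO acute libraries and at 25.1, 24.4, 42.0 and 19.0 in WT acute libraries. Every KO library was above the highest WT library, and the KO mean was 394% of the WT mean (log2 fold change 1.97, SE 0.33; limma adjusted p = 0.00290). Per kb of transcript it was among the lowest tested members in WT acute libraries, at 6.66 normalized counts per kb. The call stood in all 19 acute alternatives, with log2 fold changes of 1.60 to 2.19. Plekhm2 lies at chr4:141625734-141664899 on the minus strand of GRCm38. The 250 bases before its RefSeq start are shown because Plekhm2 is the member with the largest rise. These bases lie inside that gene span, which GENCODE begins further upstream. They held CACGTG in 0 of 1 window, a GC content of 68.8% and 23 CpG dinucleotides, against 55.2% and 15 in the Atp6v0c window and medians of 52.4% and 6 over 32851 RefSeq windows.
Plekhm2 (chr4:141664147-141664396, minus strand): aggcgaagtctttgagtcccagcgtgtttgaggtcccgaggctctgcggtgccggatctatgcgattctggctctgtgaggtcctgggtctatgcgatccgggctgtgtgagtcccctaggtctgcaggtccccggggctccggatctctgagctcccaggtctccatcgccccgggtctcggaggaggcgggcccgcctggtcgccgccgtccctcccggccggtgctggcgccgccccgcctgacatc

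Plekhm1, the related adaptor that couples RAB7 and ARL8 to the fusion machinery, was at 214, 328, 276 and 222 in KO acute libraries, against 209, 138, 197 and 158 in WT acute libraries. Its groups did not overlap by a narrow margin (log2 fold change 0.56, limma adjusted p = 0.0947). The GTPases that these adaptors bind had the opposite sign. Arl8b was at 952, 777, 1056 and 1011 in KO acute libraries and at 1722, 1717, 1565 and 1579 in WT acute libraries. It fell to 57.7% of the WT mean, with no overlap (log2 fold change -0.80, SE 0.12; limma adjusted p = 0.00174). Rab7 fell as well (log2 fold change -0.44, limma adjusted p = 0.0362), but that call was lost in 7 of the 8 settings that left out 1 acute library (adjusted p = 0.0366 to 0.0931) and with the trend removed (-0.24, adjusted p = 0.278). Of 11 tested genes of lysosome positioning, Arl8b was the 1 that passed, against 12.6% of all genes tested.

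The genes around the listed members were counted by role, from lists chosen with earlier results of these data known. Their calls stand against 4.58% higher and 8.07% lower over all genes tested in the acute comparison. Of 18 further autophagy core genes, 0 passed with limma in the acute comparison and 4 had an unadjusted p under 0.05, against 28.1% of all genes. Of 11 tested selective autophagy receptors, 5 fell and 0 rose, with a median log2 fold change of -0.58. The 5 calls became 3 without WT acute replicate 4 and 3 under quantile normalization, 2 without KO acute replicates 1 and 2 together, 2 with a variance prior that ignores abundance, and 1, Ncoa4, with the trend removed (median -0.37). They were Fundc1 and Bnip3l, receptors for mitochondria, Ncoa4, which delivers ferritin to the lysosome, Tax1bp1, a receptor for ubiquitinated cargo, and Sec62, a receptor for endoplasmic reticulum. Ncoa4 was at 1002, 867, 901 and 825 in KO acute libraries and at 1375, 1465, 1301 and 1717 in WT acute libraries, all KO values below all WT values (log2 fold change -0.70, SE 0.12; limma adjusted p = 0.00364).

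Fundc1 averaged 595 ± 189 in KO acute libraries and 960 ± 58.1 in WT acute libraries (SD, n = 4 each; log2 fold change -0.74, limma adjusted p = 0.0194). It did not pass without WT acute replicate 4 (limma adjusted p = 0.0640) and without KO acute replicates 1 and 2 together (-0.50, adjusted p = 0.126), and its value was -0.30 (adjusted p = 0.320) with the trend removed. Tax1bp1 averaged 1560 ± 376 in KO acute libraries and 2363 ± 277 in WT acute libraries (SD, n = 4 each; log2 fold change -0.62, limma adjusted p = 0.0186). That call did not survive the removal of KO acute replicate 1 (adjusted p = 0.0545) or WT acute replicate 2 (0.0622), and it was also lost with the trend removed (-0.38, 0.123) and under quantile normalization (0.0542). Bnip3l was lost with the trend removed (-0.37, adjusted p = 0.0669) and without KO acute replicates 1 and 2 together (-0.49, adjusted p = 0.0554), and Sec62 was lost with the trend removed (-0.44, adjusted p = 0.0975).

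Of 13 fusion genes 2 fell, against 8.07% of all genes tested. They were Rab7 and Snap29, a SNARE that joins the autophagosome to the lysosome, at 203, 214, 253 and 250 in KO acute libraries and at 443, 409, 484 and 381 in WT acute libraries. The Snap29 groups lay far apart (log2 fold change -0.90, SE 0.16; limma adjusted p = 0.00365). Of 21 further lysosomal membrane and lumen genes 2 fell, again against 8.07% of all genes. Among them Gm2a, the activator of ganglioside breakdown, averaged 122 ± 24.2 in KO acute libraries and 242 ± 28.2 in WT acute libraries (SD, n = 4 each). It was at 50.4% of its WT mean (limma adjusted p = 0.00776).

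Of 29 genes of mTORC1 and lysosomal nutrient sensing 4 fell and 0 rose, against 8.07% lower and 4.58% higher over all genes tested. Rragc, a GTPase that recruits mTORC1 to the lysosome, averaged 555 ± 106 in KO acute libraries and 878 ± 57.5 in WT acute libraries (SD, n = 4 each; log2 fold change -0.68, limma adjusted p = 0.0106). Lamtor1 and Lamtor3, of the Ragulator scaffold, had log2 fold changes of -0.77 and -0.66 (limma adjusted p = 0.0387 and 0.0336), and Prkaa1, a catalytic subunit of AMPK, had -0.50 (0.0266). The Lamtor1 call was lost in 6 of the 8 settings that left out 1 acute library (adjusted p = 0.0218 to 0.111) and the Lamtor3 call in 5 of 8 (0.0137 to 0.0974). The Rragc call was lost with a variance prior that ignores abundance (adjusted p = 0.0567) and without KO acute replicates 1 and 2 together (-0.48, adjusted p = 0.0772). Prkaa1 was lost in that last setting too (-0.54, adjusted p = 0.0567) and with the trend removed (-0.38, adjusted p = 0.0788), so none of the 4 passed without KO acute replicates 1 and 2. Over the 8 lists of 162 genes, not all of them tested, 16 genes passed in the acute comparison. That was no larger a share of the tested genes than the 12.6% of all genes. Tested were 18 autophagy core, 11 receptor, 13 fusion, 11 positioning, 12 V-ATPase, 34 hydrolase, 21 membrane and lumen and 29 nutrient sensing genes. Of those 16, 7 still passed with the trend removed and 8 without KO acute replicates 1 and 2 together. Arl8b, Tcirg1, Snap29, Ncoa4 and Gm2a were among those that passed in both of those settings.

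The median transcript length and GC content differed between the called and the other members, which was not tested, and the lengths overlapped. They ran from 772 to 4065 bases in the members that fell and from 754.5 to 5968 bases in those that did not pass. The 8 that fell had a median transcript length of 1930.5 bases and a median GC content of 45.2%, the 35 that did not pass had 2825 bases and 52.6%, and the 2 that rose had 3323 bases and 56.8%. Over all genes tested in the acute comparison, the median log2 fold change was -0.05 for the 3548 genes with the shortest transcripts (up to 1624 bases) and 0.11 for the 3544 with the longest (from 3952 bases). With a smooth trend on length, GC content and abundance removed, 5 members passed, and 4 of them were among the 10: Plekhm2, Atg5, Atp6v0c and Atp6v1a. Without KO acute replicates 1 and 2, the libraries with the higher mitochondrial shares, 4 passed (Plekhm2, Atp6v1a, Lamp2 and Atg5). With a variance prior that ignores abundance, 6 passed, and Lamp2, Gabarap, Atp6v0e and Atp6v1d did not.

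The survival comparisons ask whether these genes differed in leukemias that had grown to the endpoint after treatment. With limma, 0 of 47 tested members passed in any of the 4 survival comparisons, Gabarapl1 being too low to test. Of all 14286 genes tested, 0.224% passed in the second wave against WT survival, 0% in the first wave against WT survival, 0.119% in the second wave against the first, and 0.021% in both waves against WT survival. These counts over all genes depended on single libraries. The second wave against WT survival had 32 calls, 140 without WT survival replicate 3, 61 without second-wave replicate 3, 21 without first-wave replicate 1 or 2, and 19 and 15 without WT survival replicate 1 or 2. Both waves against WT survival had 3 calls, 155 without WT survival replicate 3 and 5 without second-wave replicate 3. The second wave against the first had 17, 38 without second-wave replicate 3, 1 without first-wave replicate 1 or 2, and 4 to 10 without first-wave replicate 3, second-wave replicate 1 or WT survival replicate 2, 3 or 4. The first wave against WT survival had 0, and at most 3 with 1 library left out (without second-wave replicate 3). At an unadjusted p under 0.05 the members numbered 7, 2, 4 and 6 in those 4 comparisons (14.9%, 4.26%, 8.51% and 12.8%), against 13%, 8.02%, 6.34% and 12.9% of all genes. The median log2 fold change of the members was -0.13 in the second wave and -0.05 in the first wave against WT survival, against -0.01 and 0.01 over all genes. The waves share their WT libraries, so these comparisons are not independent. On the leading principal component, WT survival replicates 1 and 2 scored 78.6 and 67.2, second-wave replicate 1 scored -73.2, and the other 7 survival libraries lay between -18.8 and 4.16. The groups did not overlap for 4, 4, 7 and 2 of the 47 members in the same 4 comparisons (8.51%, 8.51%, 14.9% and 4.26%), against 9.66%, 8%, 13.6% and 2.12% of all genes.

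The member nearest to the threshold was Nbr1. It was at 848, 870 and 978 in the second wave, at 1406, 1468 and 1316 in the first wave, and at 1605, 1816, 1262 and 1569 in WT survival libraries. All 3 second-wave libraries lay below every other survival library. Against WT survival its log2 fold change of -0.79 (SE 0.16) had a limma adjusted p of 0.0749, and against the first wave that of -0.64 (SE 0.18) had one of 0.384. Without WT survival replicate 3, the lowest WT library, it was called (-0.89, adjusted p = 0.0283).

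Atg9a was at 184, 120 and 210 in the second wave, at 268, 207 and 271 in the first wave, and at 356, 302, 281 and 282 in WT survival libraries. Neither wave overlapped WT survival, and the second wave differed by -0.86 on the log2 scale (SE 0.25, adjusted p = 0.193 with limma). Pik3c3 was at 541, 486 and 412 in the second wave, at 595, 570 and 473 in the first wave, and at 689, 713, 699 and 625 in WT survival libraries, again with no KO library reaching the WT range. Its log2 fold changes were -0.51 in the second wave and -0.32 in the first wave (limma adjusted p = 0.260 and 0.636). In the acute table the same gene had a log2 fold change of 0.30. Map1lc3b averaged 620 ± 109 in the second wave, 760 ± 89.0 in the first wave (SD, n = 3 each) and 843 ± 103 in WT survival libraries (SD, n = 4), with a log2 fold change of -0.45 in the second wave (limma adjusted p = 0.340). Atg13 had a log2 fold change of -0.78 in the second wave (limma adjusted p = 0.253), and its WT values spread from 589 to 1399, with replicates 1 and 2 the highest.

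**Figure D3:**
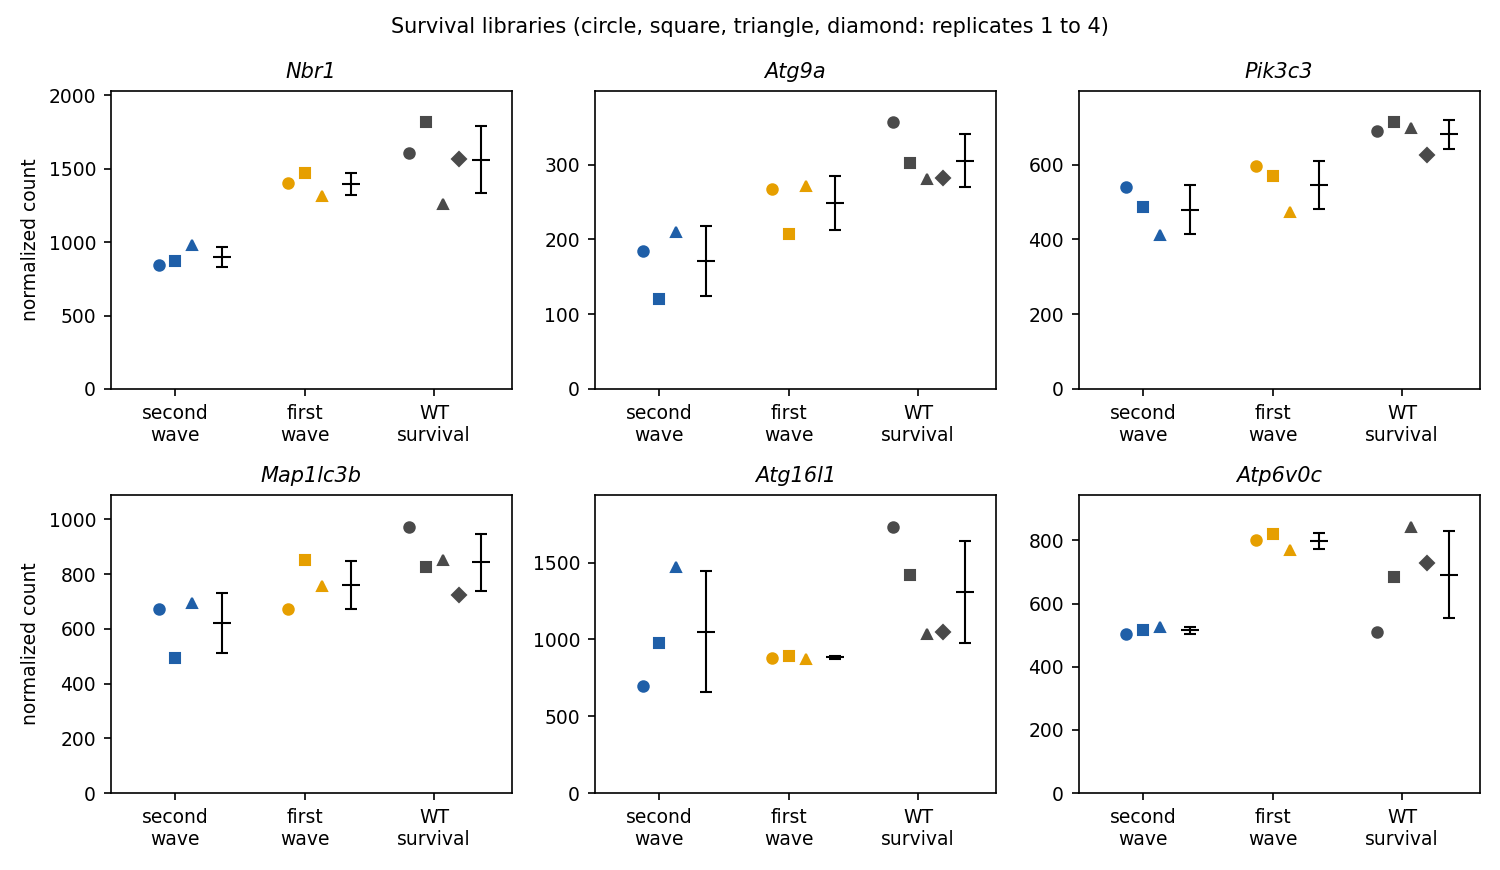
Normalized count (y axis, from 0) of 6 members in the survival libraries: second wave (blue, n = 3), first wave (orange, n = 3) and WT survival (grey, n = 4), with each group's mean and SD as a bar. The 3 second-wave libraries lie below all others for Nbr1, and no KO library reaches the WT range for Atg9a and Pik3c3.

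Between the waves, Atp6v0c had tight groups that did not overlap, at 505, 516 and 526 in the second wave and at 801, 820 and 770 in the first wave, with WT survival libraries spread over both at 510, 684, 844 and 728. The log2 fold change of the second wave against the first was -0.63 (SE 0.20; limma adjusted p = 0.544). Mitf, the third MiT/TFE member, was at 11.1, 32.4 and 26.2 in the second wave, against 0.90, 4.74 and 1.87 in the first wave and 5.76, 1.80, 2.95 and 12.6 in WT survival libraries. Its limma adjusted p was 0.605 between the waves and 0.382 against WT survival, and it passed the filter through its second-wave values. In the first wave, Atg16l1 was at 880, 895 and 875, below all 4 WT survival libraries at 1733, 1417, 1033 and 1050 (log2 fold change -0.53, limma adjusted p = 0.617), and Wipi1 averaged 13.0 ± 7.15 (SD, n = 3) against 32.7 ± 3.64 in WT survival libraries (SD, n = 4). Over all 47 tested members, log2 fold changes against WT survival ran from -1.42 to 1.98 in the second wave and from -1.42 to 0.65 in the first wave. The macrophage marker sum was 2914 in second-wave replicate 1, against 877 and 1326 in the other second-wave libraries. WT survival replicates 1 and 2 had neutrophil marker sums of 1862 and 1103, against 294 to 481 in the other 8 survival libraries. They also had the lowest sums of thymocyte and T-ALL markers of the table, 76623 and 84351. Among the 4 WT survival libraries they were the highest for Atg13 and Atg16l1. For Atg16l1, second-wave replicate 3 was at 1473, above WT survival replicate 2 at 1417. All 12 tested neutrophil markers had negative log2 fold changes in both waves pooled against WT survival, and all 16 T-ALL markers had positive ones in the first wave, with 0 called in either list at a limma adjusted p of 0.05 and 2 and 4 at an unadjusted p under 0.05. By wave, 9 neutrophil markers were negative in the first wave and 11 in the second. The T-ALL markers were split 8 positive and 8 negative in the second wave, and 10 and 6 in both waves pooled. Of 8 tested B-cell markers 5 had negative log2 fold changes in the first wave and 7 in the second wave. Pax5, a B-cell transcription factor, was called lower in the second wave (-4.81, limma adjusted p = 0.0239). The part of these marker differences in the survival values was not tested.

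The 10 members called in the acute comparison did not pass in the survival comparisons. In the second wave their log2 fold changes against WT survival lay between -0.43 (Atp6v1d) and 0.36 (Plekhm2), and in the first wave between -0.32 (Atp6v1d) and 0.43 (Atp6v0e). Plekhm2 was at 43.4, 43.7 and 121 in the second wave, at 66.8, 51.9 and 60.9 in the first wave, and at 21.4, 62.5, 62.7 and 60.7 in WT survival libraries, so the groups overlapped. Atp6v1a averaged 1936 ± 173 in the second wave, 1963 ± 72.9 in the first wave (SD, n = 3 each) and 1698 ± 236 in WT survival libraries (SD, n = 4). Its 95% confidence interval was -0.14 to 0.53 in the second wave and -0.11 to 0.55 in the first wave, against -1.07 to -0.49 in the acute comparison. The difference between the acute and the survival comparisons was not tested, since the tables were normalized separately and the stages differ.

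**Figure D4:**
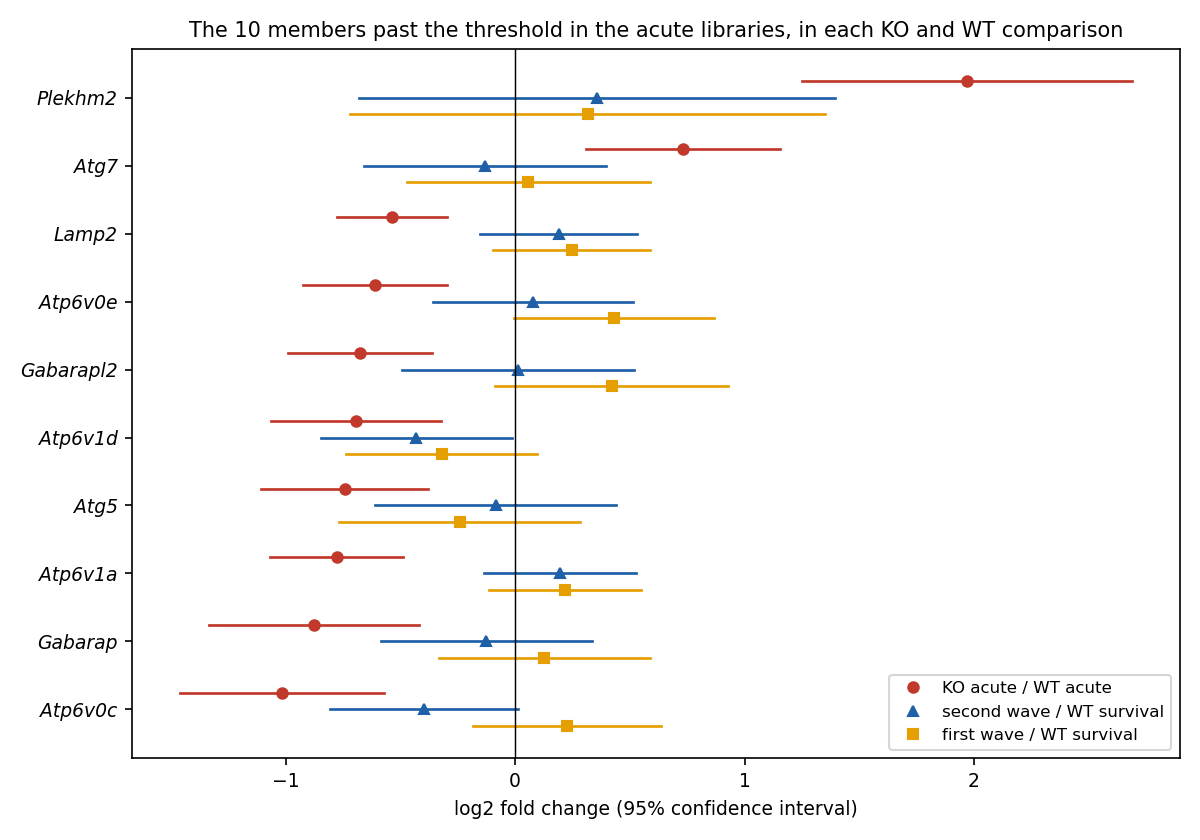
Log2 fold change with its 95% confidence interval (x axis) of the 10 members called in the acute comparison, for KO acute over WT acute (red circles), second wave over WT survival (blue triangles) and first wave over WT survival (orange squares). The acute intervals exclude 0 in all 10 genes, which were chosen for that, and the survival intervals include it except for Atp6v1d in the second wave (-0.85 to -0.02).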

How the data were processed

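RNA was sequenced from 18 mouse spleen libraries. The deposited values are in the unit signal: the authors' gene counts, estimated with kallisto 0.44.0 against GRCm38 and divided by size factors of DESeq, as the submitters' processing notes name these tools. DESeq's version, its annotation and strand setting were not given in these sources. Whole reads could not be recovered (37.9% to 63.6% of values under 8 lay within 0.02 of a multiple of the library's step), hence no count model. Depth limits low genes most.

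For testing, 1 was added and log2 taken. Genes averaging 10 or more in a table entered limma 3.58.1 (R 4.3.3; lmFit, eBayes with trend), with Benjamini-Hochberg adjustment over every tested gene and a threshold of 0.05. The survival fit held all 10 survival libraries. Fold changes on this scale understate the change of low genes. Errors are SDs between libraries or model SEs. The test was checked on simulated data. Transcript lengths, GC contents and gene coordinates came from GENCODE M21 (GRCm38), and promoters from RefSeq.

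Members and lists were chosen with earlier results of these data known. Named with values per library are Acly, members past the threshold, and the member with the largest acute change of each role. From each list, up to 3 called genes per direction are named. A gene that this rule picks is not reported here. Other named genes were chosen after their values were seen. Alternatives were other pseudocounts, filters, scalings, variance priors and fits, removal of the length, GC and abundance trend, and libraries left out.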

Additional observations from a re-analysis of the deposited data

Results flagged for a closer look

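In 7 of 144 groups of 4 libraries, 1 library lay far from the other 3. Chance gives about 1 in 20 groups, or 7.2 of 144, so the number of such groups is close to what chance gives. In KO acute libraries, replicate 2 was low for Atp6v0e (338.97, against 451.88 to 466.31 in the other 3) and high for Sqstm1 (223.66, against 137.28 to 149.15), and replicate 4 was high for Gabarapl2 (338.33, against 281.69 to 289.56). In WT acute libraries, replicate 3 was high for Gabarapl1 (6.17, against 2.5 to 2.98), which is near the lowest values measured. In WT survival libraries, replicate 1 was low for Plekhm2 (21.44, against 60.72 to 62.67), replicate 3 was high for Ulk1 (1076.83, against 781.08 to 824.05) and replicate 4 was high for Atg4b (494.42, against 392.56 to 404.18). All values are normalized counts.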

How the results depend on the processing

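In the acute comparison 10 members were called (2 higher, 8 lower). This became 6 if eBayes used no trend, 5 with the length, GC and abundance trend removed, 4 without KO acute replicates 1 and 2, and 8 to 10 when 1 library was left out. It was 13 under quantile normalization, split 5 higher and 8 lower, and 12 with a mean of at least 50, split 4 and 8. Over all genes, the 1794 acute calls became 903 without KO acute replicates 1 and 2 (232 higher, 671 lower), 693 if eBayes used no trend (286 and 407), and 983 and 1179 on removal of WT acute replicate 4 or 2. The replicate block gave 9 members (1 higher, 8 lower), with Atg7 lost. Same-numbered libraries correlated at -0.03 to 0.09, which with so few libraries per group does not settle whether the numbers pair the samples. In the second wave against WT survival 0 to 1 members passed when 1 library was left out, the 1 being Nbr1 without WT survival replicate 3. In the other survival comparisons 0 members passed under every alternative run with limma. The first-wave Acly call, at an adjusted p of 0.0562, passed with pseudocount 5 (-1.22, adjusted p = 0.0483), without a filter (-1.22, 0.0440), with a mean of at least 50 (-1.22, 0.0424), under quantile normalization (-1.22, 0.0459) and with robust eBayes (-1.22, 0.0398). With 1 library left out its log2 fold change was -1.29 to -1.15, with adjusted p of 0.0255 (without second-wave replicate 3, the 1 of 10 such settings in which it passed) to 0.595, and the highest adjusted p of the other alternatives was 0.697. For 48 of the results on single genes other than Acly there were 947 values under the alternatives, of which 866 kept their side of the threshold, 79 lost it, 2 gained it (Atg13 and Nbr1) and 0 changed sign among called genes. The acute results of Atg16l1, Wipi2, Bnip3l, Sec62 and Prkaa1 are not among these 48, and their changes of side are given above. The causes were not tested.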
